A study of Homo sapiens with 24 samples.

Results

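U2OS osteosarcoma cells that carried a guide against QKI and expressed QKI7 without its KH domain were compared with cells that carried the same guide and an empty vector, before any drug was given. The means compared came from 4 of the 24 libraries of the series: 2 libraries labelled sgQKI+QKI7-△KH at 0 h (written QKI7-dKH here) and 2 libraries labelled sgQKI+EV at 0 h. The spread behind each SE and p-value was estimated over all 24 libraries, those of later times included. All 12547 endogenous rows of the expression table entered the comparison, and rows of spike-in RNA were set aside. The series as a whole asked how QKI7 affects mRNA stability, so each genotype was also sampled after 4 h and 8 h of a chase with actinomycin D at 5 µg/mL, which stops transcription, together with sodium arsenite at 200 µM, an oxidative stressor that induces stress granules.

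The groups used here were QKI7-dKH (guide against QKI, add-back of QKI7 lacking the KH domain), QKI7-WT (guide against QKI, add-back of intact QKI7), sgQKI+EV (guide against QKI, empty vector) and sgNS+EV (guide labelled sgNS, empty vector), with 2 libraries per group and time. The first 3 groups all carried the guide against QKI, and every group carried a vector. The promoter of the add-back constructs, the editing outcome at QKI, and whether each line was a clone or a pool are not stated in any source used here. The labels do not say that replicates came from separate cultures. The p-values therefore measure only the spread between libraries of the same group, pooled over all 24 libraries, which may be technical.

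QKI is a STAR-family RNA-binding protein. Its KH domain, together with flanking QUA regions, contacts RNA and prefers a bipartite element made of an ACTAAC or ACTAAT core and a nearby TAAC or TAAT (in DNA letters), called the short element here. Splice isoforms differ in their C-terminal tails. QKI5 is mainly nuclear, while QKI7 is mainly cytoplasmic, has been described as a reader of internal m7G in mRNA, and can move into stress granules. A protein without the KH domain lacks at least part of the surface that contacts the element.

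U2OS is an established human osteosarcoma line of mesenchymal type. Its expected markers were measured in all 4 libraries: VIM, an intermediate filament gene, had 4135.5 and 3814 units of signal in QKI7-dKH cells, against 3595.2 and 3536.9 in sgQKI+EV cells, and the bone matrix gene SPARC had 975.8 and 904.3 units against 874.4 and 850.2. COL1A1 and RUNX2 were also measured, and COL1A2 and ALPL were not analysed here. Of 44 markers of blood, liver or gut, endothelial and neural cells, 8 were measured, and their summed signal was 405.3 and 355.5 in QKI7-dKH cells, against 346.2 and 339.7 in sgQKI+EV cells. Most of that sum came from SERPINA1 and TUBB3, while CD34, SYN1, CDX2 and OLIG2 were at or below 6.21 units in every library. The depth of the libraries is unknown, because the table holds normalised signal and no counts.

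On the deposited scale nearly every transcript was higher in QKI7-dKH cells. The signal summed over rows other than ribosomal RNA was 1211384 and 1134865 in QKI7-dKH cells, against 1029779 and 999013 in sgQKI+EV cells, a ratio of the means of 1.16, which lay between 1.12 and 1.19 with any 1 of the 4 libraries left out. Both QKI7-dKH totals were above both sgQKI+EV totals, although 2 libraries against 2 cannot give an exact permutation p under 0.333. The median log2 difference over all rows was 0.19, and 94.8% of rows lay above 0. The shift was similar at every level of expression, with medians between 0.17 and 0.21 in 5 equal bins of mean signal. The 38 spike-in rows had a median log2 difference of -0.0024, and their totals were 11595 and 11584 units in QKI7-dKH cells, against 11660 and 11569 in sgQKI+EV cells. How and when the spike-in RNA was added is not given in the sources used here, so this shared difference has no known meaning per cell. In bulk samples, fewer cells and less RNA per cell cannot be told apart. The share of ribosomal RNA in the endogenous signal was 11.4% and 5.9% in QKI7-dKH cells and 8.22% and 3.55% in sgQKI+EV cells. The groups overlapped, replicate 1 had the higher share in both, and the part of ribosomal RNA in the shift was not tested.

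Library values at 0 h are given as deposited, and differences on the scale named beside them. The deposited scale includes the shared shift. For the rescaled one each library was brought to the same total without ribosomal RNA, which leaves differences relative to the bulk of transcripts. A row is said to have passed where the adjusted p was under 0.05 in a limma fit of log2(value + 1) with Benjamini-Hochberg adjustment over all 12547 rows. On the deposited scale 1575 rows (12.6%) were higher and 15 (0.12%) lower in QKI7-dKH cells. After rescaling the median difference was -0.01, 44.1% of rows lay above 0, and 16 rows (0.128%) were higher and 27 (0.215%) lower. 5 of the 27 are U1 small nuclear RNA rows with identical values, so that the 43 rows hold 39 distinct ones. The rescaled differences were small, with 11 of the 43 rows at or past 1.5-fold on values plus 1, and these 11 include the 5 identical U1 rows.

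Both counts depended on single libraries. Of deposited values, 121 rows passed without sgQKI+EV replicate 1, 20 without sgQKI+EV replicate 2, 34 without QKI7-dKH replicate 1 and 1026 without QKI7-dKH replicate 2, against 1590 with all. After rescaling the counts were 13, 20, 23 and 10 in the same order, against 43. 7 genes passed on the rescaled values whichever library was left out: SUN3 was higher, and BPIFB4, COL3A1, ERRFI1, MMP3, MMP7 and NID1 were lower. When the totals included ribosomal RNA, the split turned to 8 higher and 39 lower, against 16 higher and 27 lower without it.

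**Figure D1:**
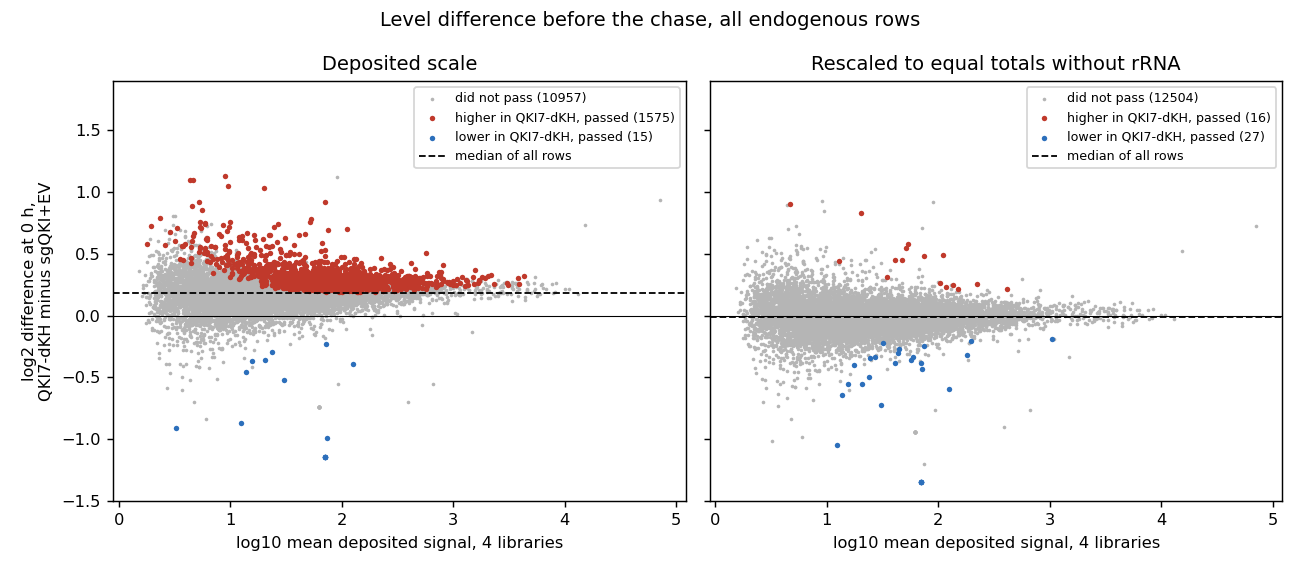
Log2 difference between QKI7-dKH and sgQKI+EV cells at 0 h (vertical axis) against log10 mean deposited signal over the 4 libraries (horizontal axis), 1 point per endogenous row, on the deposited scale (left) and after rescaling (right). Red points are higher and blue points lower past the threshold, and the dashed line marks the median of all rows: on the left the cloud is centred at 0.19 with 1575 red points, and on the right at -0.01 with 16 red and 27 blue points.

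QKI itself, at chr6:163414000-163578596 of GRCh38, had 47.6 and 50.2 units in QKI7-dKH cells, against 36 and 32.7 units in sgQKI+EV cells. As deposited the groups did not overlap, but 94.8% of all rows lay above 0 on that scale. The share of all rows without overlap was not counted. The deposited log2 difference was 0.50 (SE 0.14, adjusted p = 0.0339), and it did not pass once any 1 library was left out (adjusted p between 0.0795 and 0.254). After rescaling it was 0.29 (SE 0.17, adjusted p = 0.873). The row is one per gene, so transcripts of the edited locus and of the add-back construct cannot be told apart in it, and it is no check of how much add-back protein was made. QKI7-WT cells had 60.4 and 46.3 units and sgNS+EV cells 60 and 48.2. The other STAR-family genes measured, SF1, KHDRBS1 and KHDRBS3, did not pass on either scale.

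The QKI element was looked up in the annotated 3′UTRs of the rows that passed after rescaling, because it is the sequence that the deleted domain contacts. A core was counted as ACTAAC or ACTAAT on the transcript strand, and a short element as TAAC or TAAT between 1 and 20 bases from it. A core was found in 6 of the 13 higher genes with an annotated 3′UTR (46.2%), in 9 of the 21 lower genes (42.9%) and in 34.8% of all 11212 measured genes with one. A core with a short element was found in 2 of the higher genes (15.4%), 2 of the lower genes (9.52%) and 16.3% of all genes. A longer 3′UTR has more room for a match: the median length was 338 bases in the higher genes, 976 in the lower genes and 1135 in all. These matches describe the letters and are not binding sites. The windows from 6 of the genes described next are shown on the transcript strand in GRCh38, with the core and, where present, the short element in capitals. HMGCS1, SCD and ERRFI1 hold both parts, and NID1, COL3A1 and MMP13 hold a core alone.
HMGCS1, chr5:43290758-43290787, minus strand: tACTAATctccaattaaaaaatttttTAAC
SCD, chr10:100364771-100364784, plus strand: cTAATtgtACTAAT
ERRFI1, chr1:8012474-8012494, minus strand: aTAATagaactagtgACTAAT
NID1, upstream match, chr1:235977034-235977055, minus strand: caaagattACTAATtattcctc
NID1, downstream match, chr1:235976727-235976748, minus strand: atatttatACTAATggttcata
COL3A1, chr2:189012413-189012434, plus strand: tcaagattACTAATatttggga
MMP13, chr11:102943708-102943729, minus strand: acacagacACTAACgaaatatc

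Several genes of cholesterol synthesis were higher in QKI7-dKH cells on both scales, by up to 1.2-fold after rescaling. Of 24 measured members 17 were higher and 0 lower on the deposited scale, where 12.6% of all rows were higher, and 4 were higher and 0 lower after rescaling, where 0.128% of all rows were higher. After rescaling 22 of 24 lay above 0 and the list's median log2 difference was 0.19, against -0.01 over all rows. HMGCS1, the cytosolic HMG-CoA synthase, had 122.9 and 118.9 units in QKI7-dKH cells, against 88.2 and 85.2 in sgQKI+EV cells. Its rescaled log2 difference was 0.27 (SE 0.05, adjusted p = 0.0353). FDFT1, squalene synthase, had 264.4 and 253.7 units against 187.6 and 186.5, with a rescaled difference of 0.26 (adjusted p = 0.00871). Each of these QKI7-dKH values was above both sgQKI+EV values, which the rule for genes higher on both scales required. ACAT2, the thiolase that joins 2 acetyl-CoA units at the start of the pathway, had 158.3 and 154.9 units in QKI7-dKH cells, against 113.6 and 113.8 in sgQKI+EV cells (rescaled log2 difference 0.25, adjusted p = 0.0324). SQLE, squalene epoxidase, had 175.8 and 165.1 units against 127.9 and 125.9 (0.21, adjusted p = 0.0324).

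These 4 calls were close to the threshold after rescaling. With any 1 of the 4 libraries left out, the adjusted p ranged from 0.145 to 0.476 for HMGCS1, from 0.0971 to 0.476 for ACAT2, from 0.198 to 0.403 for SQLE and from 0.0474 to 0.194 for FDFT1, which still passed without QKI7-dKH replicate 1. None of the 4 passed with totals that included ribosomal RNA (adjusted p between 0.108 and 0.259) or in a fit of the 8 libraries at 0 h alone (adjusted p between 0.0526 and 0.274). Without rescaling, HMGCS1, FDFT1 and ACAT2 passed whichever library was left out.

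Other members of the list passed on the deposited scale alone. CYP51A1, the lanosterol demethylase, had 104.4 and 106.5 units in QKI7-dKH cells, against 77.2 and 77.2 in sgQKI+EV cells, a deposited log2 difference of 0.44 (adjusted p = 0.00278) and a rescaled one of 0.24 (adjusted p = 0.306). INSIG1, which holds the SREBP precursor in the endoplasmic reticulum, had 39.1 and 35.5 units against 29 and 23.7 (rescaled 0.29, adjusted p = 0.35). As deposited the groups did not overlap for CYP51A1 or INSIG1, but 94.8% of all rows lay above 0 on that scale. PMVK and TM7SF2 were the 2 members with rescaled differences below 0, at -0.22 and -0.24, and neither passed.

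Of 15 measured genes of fatty acid synthesis and desaturation 8 were higher and 0 lower on the deposited scale, where 12.6% of all rows were higher. After rescaling, where 0.128% of all rows were higher, SCD alone was higher, with a list median of 0.06. SCD, the stearoyl-CoA desaturase that makes monounsaturated fatty acids, had 499.5 and 455.9 units in QKI7-dKH cells, against 362.4 and 349.3 in sgQKI+EV cells. Its rescaled log2 difference was 0.21 (SE 0.03, adjusted p = 0.00267). The call was lost without QKI7-dKH replicate 1 (adjusted p = 0.0541) with totals that included ribosomal RNA (adjusted p = 0.131) and in the fit of the 8 libraries at 0 h (adjusted p = 0.0642). FASN, the fatty acid synthase, had 194.7 and 165.1 units against 140.6 and 137.4 and did not pass on either scale (adjusted p = 0.0576 deposited).

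Sterol and fatty acid genes are classical targets of the SREBP factors, which bind their promoters beside NF-Y, a factor that recognises CCAAT. The upstream sequences of HMGCS1 and SCD are shown for that reason, from the RefSeq promoter table (GRCh38.p14), trimmed to bases that lie before the gene in both RefSeq and GENCODE 29. CCAAT or its complement ATTGG is in capitals. 20 of the 43 rows had an entry in the table. Over 250 bases upstream, CCAAT on either strand was found in 32% of 35116 promoters, and 2 times each in HMGCS1 and SCD (1 of the matches of HMGCS1 lies outside the stretch shown, and a second RefSeq entry of HMGCS1, at chr5:43313182-43313431, holds 0). TCACCCCAC, a sterol response sequence, was found on either strand in 0.362% and in neither of these windows. CCAAT was also found upstream of other rows that passed in both directions, among them BEX1 and RFPL4A (higher) and NID1 and BPIFB4 (lower).
HMGCS1, chr5:43313513-43313662, minus strand: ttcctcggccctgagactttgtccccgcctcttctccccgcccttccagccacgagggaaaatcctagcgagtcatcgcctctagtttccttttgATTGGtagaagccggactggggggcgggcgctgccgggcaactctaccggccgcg
SCD, chr10:100346983-100347123, plus strand: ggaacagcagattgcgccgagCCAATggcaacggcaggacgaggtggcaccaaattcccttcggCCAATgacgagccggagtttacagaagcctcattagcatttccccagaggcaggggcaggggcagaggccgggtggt

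The genes that were higher on both scales by the most were not sterol genes. SAA1, an acute-phase serum amyloid gene at chr11:18266174-18269977, had 30.7 and 24.2 units in QKI7-dKH cells, against 12.8 and 12.8 in sgQKI+EV cells. The rescaled log2 difference was 0.83 (SE 0.13, adjusted p = 0.00484), which is 1.78-fold on values plus 1. The call was lost without sgQKI+EV replicate 1 (adjusted p = 0.0912) or without QKI7-dKH replicate 1 (adjusted p = 0.0971). SAA1 has a near-identical neighbour, SAA2, so the counting may have divided reads between them. IL32, a cytokine gene, had 16.6 and 14.9 units in QKI7-dKH cells, against 10.9 and 8.64 in sgQKI+EV cells (rescaled 0.44, adjusted p = 0.0257), and passed only without sgQKI+EV replicate 1 (adjusted p = 0.00783) when 1 library was left out, with adjusted p between 0.194 and 0.368 for the others.

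Of the 31 measured genes of cytokines, chemokines and growth factors, 7 were higher and 0 lower on the deposited scale, where 12.6% of all rows were higher. After rescaling, where 0.128% of all rows were higher, IL32 alone was higher. CCL26, an eosinophil chemokine gene, had 82.2 and 78.9 units in QKI7-dKH cells, against 55.1 and 51.8 in sgQKI+EV cells (deposited log2 difference 0.58, adjusted p = 0.00105, rescaled adjusted p = 0.0812). CCL2, a monocyte chemokine gene, had 42.3 and 46.8 units against 29.3 and 29.9 (deposited 0.57, adjusted p = 0.00391, rescaled adjusted p = 0.191). As deposited the groups did not overlap for either gene, on a scale where 94.8% of all rows lay above 0.

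TNNC1 and MYL2, best known from muscle, were higher. TNNC1, troponin C of slow and cardiac muscle, had 136.2 and 137.4 units in QKI7-dKH cells, against 83.3 and 84.1 in sgQKI+EV cells, with a rescaled log2 difference of 0.49 (SE 0.07, adjusted p = 0.0025). MYL2, the regulatory myosin light chain of the same muscles, had 52 and 48.6 units against 30.8 and 32.3 (rescaled 0.45, adjusted p = 0.0458). Of 37 measured actin and contractile genes 10 were higher on the deposited scale, where 12.6% of all rows were higher. After rescaling, where 0.128% of all rows were higher, MYL2 alone was higher, and the list's median was 0.04 (TNNC1 is not in that list). The TNNC1 call was lost without sgQKI+EV replicate 1 (adjusted p = 0.0584) or QKI7-dKH replicate 2 (adjusted p = 0.0884), and that of MYL2 with any library left out (adjusted p between 0.166 and 0.452).

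SUN3, a nuclear envelope protein of the LINC complex best known from testis, had 91.9 and 94.3 units in QKI7-dKH cells, against 59.1 and 55.5 in sgQKI+EV cells. Its rescaled difference was 0.49 (SE 0.06, adjusted p = 0.000477), with adjusted p between 0.00285 and 0.0236 when 1 library was left out. NTM, a GPI-anchored adhesion protein of neurons, had 57.3 and 58.2 units against 37.9 and 34.6 (rescaled 0.45, adjusted p = 0.00268). The remaining genes higher on both scales with a mean signal of at least 5 were SFTA1P, a long non-coding RNA (65.8 and 69 units against 39.7 and 37.7), RFPL4A (64.8 and 65.7 against 37.8 and 38.6), ADAMTS12, a secreted metalloprotease (41.3 and 40.2 against 29.2 and 27.3), and BEX1 (137.5 and 131.7 against 101.6 and 96.8). Their rescaled log2 differences were between 0.23 and 0.58. The deposited differences of all 15 genes higher by this rule lay between 0.42 and 1.03. RFPL4A has near-identical copies beside it, so its count is uncertain. With 1 library left out, ADAMTS12 and BEX1 did not pass in any case (adjusted p from 0.126 to 0.465), SFTA1P and RFPL4A passed only without QKI7-dKH replicate 1 (0.0293 and 0.0339, otherwise 0.0504 to 0.276), and NTM was lost without sgQKI+EV replicate 2 (0.0619) or QKI7-dKH replicate 2 (0.116).

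**Figure D2:**
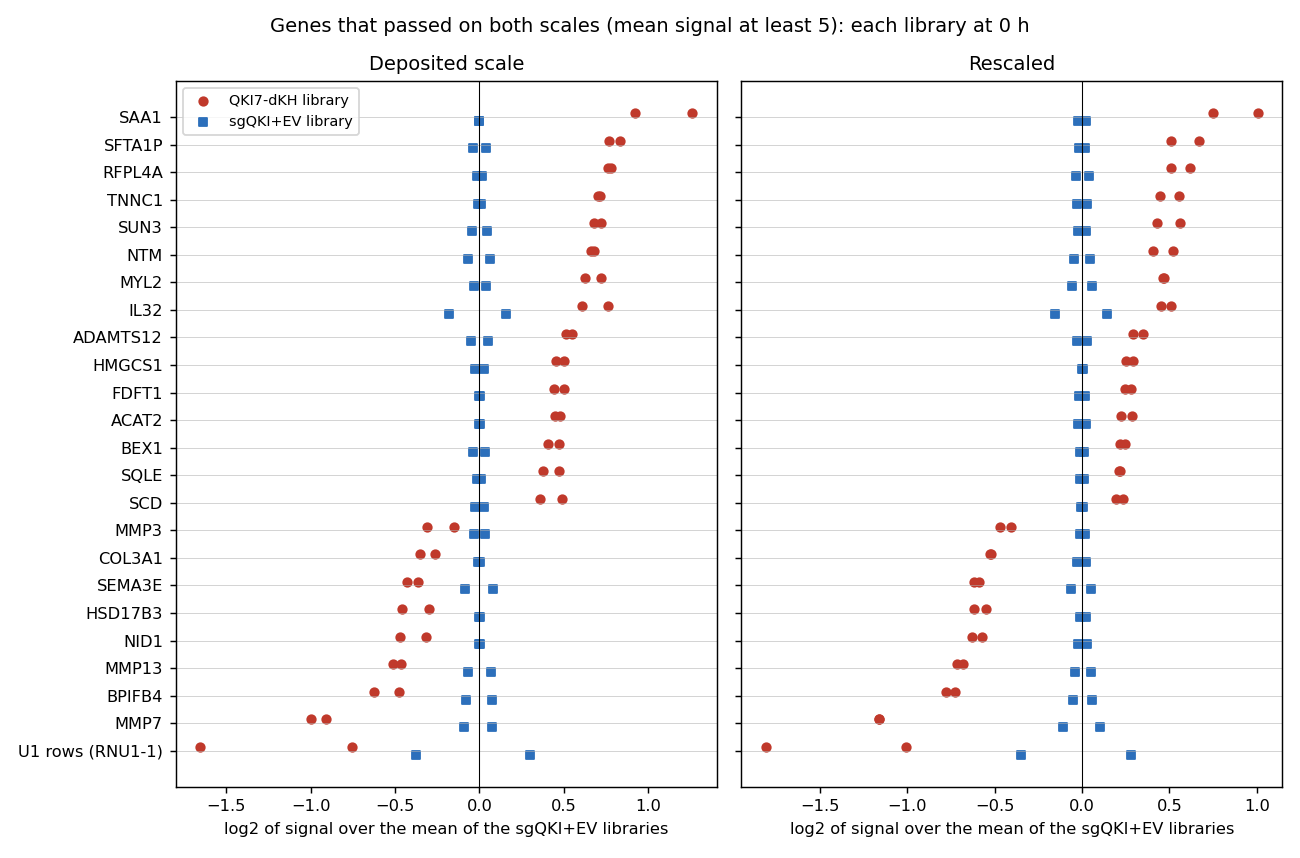
Log2 of each library's signal over the mean of the sgQKI+EV libraries (horizontal axis) for the 24 distinct rows that passed on both scales with a mean signal of at least 5 (vertical axis), deposited on the left and rescaled on the right. Red circles are QKI7-dKH libraries and blue squares sgQKI+EV libraries. The colours do not overlap for any row because rows with overlapping groups were not chosen, and the circles of the U1 rows and SAA1 are the most widely spaced.

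9 distinct rows were lower on both scales, with deposited log2 differences between -1.15 and -0.23 (adjusted p between 0.000655 and 0.0486). On the deposited scale the calls of MMP3, MMP13, COL3A1, HSD17B3 and SEMA3E were lost with any 1 library left out (adjusted p between 0.0647 and 0.257), and MMP7 passed each time. NID1 was lost there without either sgQKI+EV library (0.0567 and 0.137), BPIFB4 without sgQKI+EV replicate 1 (0.0567), and the U1 rows (RNU1-1) without sgQKI+EV replicate 1 (0.0909) or QKI7-dKH replicate 2 (0.0789). The 9 included MMP7, MMP3 and MMP13, which lie in one stretch of chromosome 11 (chr11:102520508-102530753, chr11:102835801-102843803 and chr11:102942995-102955734). MMP7, matrilysin, had 8.75 and 8.21 units in QKI7-dKH cells, against 15.4 and 17.3 in sgQKI+EV cells. Its rescaled log2 difference was -1.05 (SE 0.12, adjusted p = 0.000309), which is 0.483-fold on values plus 1. MMP3, stromelysin-1, had 69.6 and 62.4 units against 79.2 and 75.5 (rescaled -0.43, adjusted p = 0.000122). Both genes passed after rescaling whichever library was left out. MMP13, collagenase-3, had 11.6 and 11.2 units in QKI7-dKH cells, against 16.8 and 15.3 in sgQKI+EV cells (rescaled -0.65, adjusted p = 0.0127), and was lost with any library left out (adjusted p between 0.0725 and 0.209).

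In the list of 25 measured proteases and inhibitors, which does not hold MMP13, 3 were higher and 2 lower on the deposited scale. Of all rows 12.6% were higher and 0.12% lower there. After rescaling ADAMTS12 was higher and MMP3, MMP7 and HTRA1 lower, against 0.128% of all rows higher and 0.215% lower. HTRA1, a secreted serine protease, had 23.3 and 23.3 units in QKI7-dKH cells, against 27 and 24.8 in sgQKI+EV cells (rescaled -0.34, adjusted p = 0.00937), and passed with 1 library left out only when that was sgQKI+EV replicate 2 (adjusted p = 0.0441, otherwise 0.0502 to 0.207). The list's rescaled median was -0.05. MMP2, a gelatinase, had 224.5 and 202.2 units in QKI7-dKH cells, against 208.6 and 209 in sgQKI+EV cells, and the values overlapped. MMP14, the membrane-bound activator of MMP2, had 137.8 and 127.5 units against 130.9 and 130.3 (rescaled -0.19, adjusted p = 0.184). TIMP1, an inhibitor of these enzymes, had 1673.8 and 1520.7 units against 1483.3 and 1418.7 (rescaled -0.07, adjusted p = 0.967).

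The upstream sequence of MMP7 is shown because its promoter is a textbook target of AP-1, whose sequence is TGANTCA. That motif was found in 6.57% of the 35116 windows on either strand, and also in those of ADAMTS12, which was higher, and HSD17B3, which was lower. In MMP7 its match TGAGTCA and a CCAAT are in capitals.
MMP7, chr11:102530754-102530997, minus strand: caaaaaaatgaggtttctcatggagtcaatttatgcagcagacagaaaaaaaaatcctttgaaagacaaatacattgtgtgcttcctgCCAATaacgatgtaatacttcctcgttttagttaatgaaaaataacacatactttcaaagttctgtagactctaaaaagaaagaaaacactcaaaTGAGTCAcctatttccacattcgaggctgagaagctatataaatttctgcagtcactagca

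NID1, which links laminin and collagen IV in basement membranes, gave the smallest p of the comparison. It had 114.1 and 102.7 units in QKI7-dKH cells, against 141.6 and 142.4 in sgQKI+EV cells, a rescaled log2 difference of -0.60 (SE 0.04, adjusted p = 2.06e-06). COL3A1, the fibrillar collagen III chain, had 21.9 and 20.6 units against 26.2 and 26.4 (rescaled -0.50, SE 0.05, adjusted p = 0.000122). The groups did not overlap for either gene, which the rule for rows lower on both scales required. Both NID1 and COL3A1 passed after rescaling whichever library was left out. Of 44 measured collagen, matrix and basement membrane genes 10 were higher and 2 lower on the deposited scale, against 12.6% and 0.12% of all rows. After rescaling 0 were higher and 3 lower, against 0.128% and 0.215% of all rows, with a median of -0.07. The third was TNC, tenascin C, with 59.1 and 53.1 units in QKI7-dKH cells, against 63 and 60.2 in sgQKI+EV cells (rescaled -0.34, adjusted p = 0.00268; 0.0595 without sgQKI+EV replicate 1 and 0.1 without QKI7-dKH replicate 2). LUM, the proteoglycan lumican, went the other way with 33 and 30.1 units against 20 and 21, which passed on the deposited scale (adjusted p = 0.0133) and not after rescaling (adjusted p = 0.389).

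BPIFB4, a secreted protein of the BPI family, had 25.9 and 23.4 units in QKI7-dKH cells, against 37.9 and 34.1 in sgQKI+EV cells (rescaled log2 difference -0.72, SE 0.08, adjusted p = 0.000122), and passed whichever library was left out. HSD17B3, the testosterone-forming dehydrogenase, had 18.9 and 16.9 units against 23.3 and 23.2 (rescaled -0.55, adjusted p = 0.00268), and was lost without QKI7-dKH replicate 2 (adjusted p = 0.0886). SEMA3E, a semaphorin that signals through plexin D1, had 13.7 and 13.1 units against 18.6 and 16.6 (rescaled -0.55, adjusted p = 0.0264), and was lost with any library left out (adjusted p between 0.106 and 0.333).

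A further 14 rows were lower after rescaling without passing on the deposited scale. ERRFI1, a feedback inhibitor of the EGF receptor, was the one of them that passed whichever library was left out. It had 180.3 and 167 units in QKI7-dKH cells, against 187.3 and 187.6 in sgQKI+EV cells, and 138 and 136.4 rescaled units against 168.6 and 174 (log2 difference -0.32, SE 0.04, adjusted p = 0.000477). Among the 14 were the receptors NRP1, a co-receptor for semaphorins and VEGF (-0.24, adjusted p = 0.0212), UNC5B, a netrin receptor (-0.38, adjusted p = 0.0222), and ACKR3, a scavenging receptor for CXCL12 (-0.30, adjusted p = 0.0464). These 3 did not pass with any library left out (adjusted p from 0.113 to 0.399). The others were TNC, HTRA1, TCN2, FAM19A5, FXYD6, EPAS1, POTEM, CAPN5, IGFBP5 and HIST1H2BK. IGFBP5 and HIST1H2BK had deposited differences of 0.0048 and 0.02 (adjusted p = 0.959 and 0.823), so the direction of these 2 turned with the scale. POTEM belongs to a family of near-identical copies. One more gene was higher on both scales but with a mean signal under 5, CASC8, a long non-coding RNA, at 7.77 and 5.63 units in QKI7-dKH cells, against 2.96 and 2.2 in sgQKI+EV cells (deposited 1.10, adjusted p = 0.00207, rescaled 0.90, adjusted p = 0.00937; 0.17 without sgQKI+EV replicate 2 and 0.15 without QKI7-dKH replicate 1).

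The U1 small nuclear RNA rows had the lowest rescaled difference. U1 pairs with the 5′ splice site during splicing and carries no poly(A) tail, so it is only partly captured by libraries of polyadenylated RNA. The 5 identical rows (RNU1-1 and its copies) each had 57.5 and 30.9 units in QKI7-dKH cells, against 119.6 and 74.8 in sgQKI+EV cells (rescaled log2 difference -1.35, SE 0.27, adjusted p = 0.0324). The libraries of each group differed widely from each other, and the call was lost without sgQKI+EV replicate 1 (adjusted p = 0.492) or QKI7-dKH replicate 2 (adjusted p = 0.642). Of 20 measured small nuclear and nucleolar RNA rows, 1 was higher and 5 lower on the deposited scale, against 12.6% and 0.12% of all rows. After rescaling, where 0.215% of all rows were lower, 0 were higher and 4 lower. All 4 of them were U1 (the fifth identical U1 row, RNVU1-18, is not in that list). The median of the list was -0.58, with values between -1.35 and 0.93. The summed signal of the list was 1487 and 1320 units in QKI7-dKH cells, against 1747 and 2618 in sgQKI+EV cells, so sgQKI+EV replicate 2 stood apart. RN7SL2, a signal recognition particle RNA, had 418.7 and 552.5 units against 396.5 and 1264.5, with overlapping groups.

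Several large gene groups had calls on the deposited scale and 0 after rescaling. As deposited, 17 of 32 heat shock chaperones, 17 of 40 proteasome subunits, 20 of 75 respiratory chain genes, 12 of 78 cytosolic ribosomal proteins, 14 of 50 genes of DNA replication and 8 of 42 mitotic genes were higher, against 12.6% of all rows, and 0 in any of these lists were lower. After rescaling limma called 0 members of these 6 lists, and their medians lay between -0.01 and 0.06. Over all rows 0.128% were higher and 0.215% lower there, so 0 calls in lists of 32 to 78 members says little about them. In the same order 7, 3, 5, 3, 0 and 1 members were at an unadjusted p under 0.05, against 824 of all 12547 rows. The 4 measured genes of metallothioneins and zinc export were all higher on the deposited scale. MT1E had 691.1 and 634.7 units in QKI7-dKH cells, against 469.4 and 463.7 in sgQKI+EV cells (deposited log2 difference 0.50, adjusted p = 0.0124, rescaled adjusted p = 0.0606), but its paralogues share sequence and their reads may be divided.

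Among 15 measured genes with a published link to QKI, 6 were higher on the deposited scale, where 12.6% of all rows were higher. After rescaling, where 0.128% of all rows were higher and 0.215% lower, 0 of them passed in limma. Of these 15 genes 2 were at an unadjusted p under 0.05, and the median was 0.02. CCND1, cyclin D1, had 269.7 and 250.8 units in QKI7-dKH cells, against 219.5 and 214.9 in sgQKI+EV cells (rescaled 0.05). CDKN1B, the cell cycle inhibitor p27, had 57.8 and 58.4 units against 58.5 and 51.5, with overlapping groups. Of 20 measured YAP and TAZ targets 7 were higher on the deposited scale and 0 passed in limma after rescaling (2 at an unadjusted p under 0.05). CTGF, a matricellular growth factor gene, had 278.8 and 268.6 units against 225.1 and 219.5 (rescaled 0.09, adjusted p = 0.895). None of 25 immediate-early and labile mRNAs passed on either scale in limma, with 4 deposited and 1 rescaled at an unadjusted p under 0.05. Against the 12.6% of all rows higher on the deposited scale, 8 of 32 stress granule proteins, 12 of 56 genes of mRNA decay and 2 of 20 m7G methyltransferases and cap-binding factors were higher there. After rescaling limma called 0 in these 3 lists, with 0, 2 and 0 members at an unadjusted p under 0.05. Over all 12547 rows, 824 were at an unadjusted limma p under 0.05 after rescaling and 4676 on the deposited scale. At the rescaled shares of called rows, 0 calls in lists of 15 to 56 members says little about them.

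**Figure D3:**
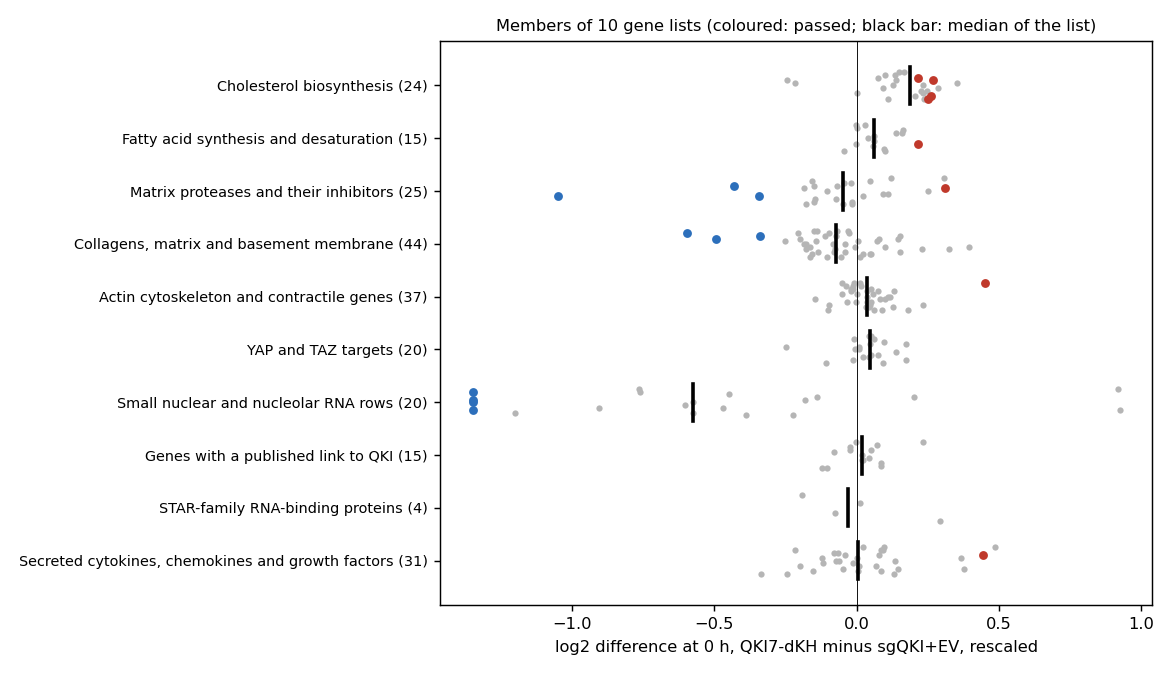
Rescaled log2 difference between QKI7-dKH and sgQKI+EV cells at 0 h (horizontal axis) for the measured members of 10 gene lists (vertical axis, number of members in brackets), with 1 point per row. Red points passed and were higher, blue points passed and were lower, and the black bar is the median of the list: cholesterol genes lie mostly right of 0 with a median of 0.19, and small RNA rows mostly left with a median of -0.58.

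The same genotype difference was then read in the 4 h and 8 h libraries, whose means share no library with those at 0 h. A single fit gave each row the same SE at every time, so a row with a small SE at 0 h kept it. The later calls are therefore not an independent repeat of the 0 h calls. At 4 h 56 rows (0.446%) passed after rescaling, 30 higher and 26 lower, and at 8 h 147 rows (1.17%), 107 higher and 40 lower. With any 1 library left out these counts fell to between 9 and 16 at 4 h and between 23 and 33 at 8 h. Of the 39 distinct rows that passed at 0 h, all 39 had the same sign at 4 h and 24 passed there, and 37 had the same sign at 8 h and 25 passed. 21 passed at both times. The share of all rows that kept their sign was not counted, so the sign counts have no background to be read against. The test of the change itself, the 8 h difference minus the 0 h difference, gave 0 rows past the threshold in limma on either scale. Of 12547 rows, 613 had an unadjusted p under 0.05 after rescaling and 323 on the deposited scale. Neither count is above the share of 0.05 that this cut gives without any change.

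Sterol genes and SCD were higher at the later times. HMGCS1 had 76.6 and 75.8 rescaled units in QKI7-dKH cells at 4 h, against 59 and 59.5 in sgQKI+EV cells, and 65.8 and 64.7 at 8 h, against 50.3 and 51.2. SQLE had 67.3 and 65.7 rescaled units at 8 h, against 51.8 and 52.2, a log2 difference of 0.35 (SE 0.04, adjusted p = 0.000377). SCD had 352.9 and 347.7 rescaled units at 8 h, against 274.5 and 271.8 (0.36, SE 0.03, adjusted p = 1.68e-05). The levels of SQLE and HMGCS1 were lower at each later time in both genotypes, and the QKI7-dKH values stayed above the sgQKI+EV values. In the cholesterol list 4 of 24 members were higher at 4 h and 9 at 8 h after rescaling, with 0 lower, and medians of 0.18 and 0.27. In the fatty acid list 1 of 15 was higher at 4 h and 2 at 8 h, with 0 lower, and medians of 0.11 and 0.19. Of all rows 0.239% were higher at 4 h and 0.853% at 8 h. CYP51A1 passed at 8 h (adjusted p = 0.012).

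The lower genes were lower again. MMP7 had 6.63 and 5.86 rescaled units in QKI7-dKH cells at 4 h, against 10.4 and 12.1 in sgQKI+EV cells, and 7.06 and 8.67 at 8 h, against 13.5 and 12.5. NID1 had 80.1 and 79.7 rescaled units at 8 h, against 108.3 and 107.6 (log2 difference -0.43, adjusted p = 5.56e-05). COL3A1 had 11.2 and 11.2 rescaled units at 8 h, against 16.9 and 17.1 (-0.56, adjusted p = 2.74e-05). No value of these 3 genes overlapped between the genotypes at 4 h or 8 h. MMP13 differed by -0.99 at 4 h and -0.90 at 8 h, against -0.65 at 0 h, and MMP3 and BPIFB4 also passed at both times.

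Not every row kept its difference. The U1 rows (RNU1-1 and its copies) had 145.9 and 184.5 rescaled units in QKI7-dKH cells at 8 h, against 108.2 and 150.5 in sgQKI+EV cells, a log2 difference of 0.36 (SE 0.27, adjusted p = 0.687) with overlapping values. NRP1 was at 0.00 at 8 h. CASC8 had differences of 0.17 and 0.24 at 4 h and 8 h, and RFPL4A of 0.26 and 0.21, none of which passed. The change between 0 h and 8 h did not pass for any of these rows either (adjusted p between 0.216 and 0.959).

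After rescaling THBS1, CTGF and CRIM1 did not pass at 0 h and passed at 4 h and 8 h. As deposited all 3 passed at 0 h (adjusted p = 0.0302, 0.0253 and 0.0148), and after rescaling the change of their differences between 0 h and 8 h did not pass (adjusted p = 0.0683, 0.216 and 0.379). THBS1, thrombospondin-1, had 212.4 and 208 rescaled units in QKI7-dKH cells at 8 h, against 161.8 and 161.5 in sgQKI+EV cells (log2 difference 0.38, adjusted p = 2.74e-05), and 557.5 and 552.2 at 0 h, against 530.6 and 540.7 (0.05, adjusted p = 0.98). CTGF had 8.75 and 8.31 rescaled units at 8 h, against 6.26 and 5.79 (0.44, adjusted p = 0.000377). CRIM1, a transmembrane regulator of BMP signalling, had 66.9 and 62 rescaled units at 8 h, against 48.7 and 49.8 (0.38, adjusted p = 0.000648). 5 of the 20 YAP and TAZ targets were higher at 8 h and 3 at 4 h, and 6 of 37 actin and contractile genes were higher at 8 h, with 0 lower in either list, against 0.239% and 0.853% of all rows higher at 4 h and 8 h. Without rescaling 5552 rows were higher at 8 h.

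**Figure D4:**
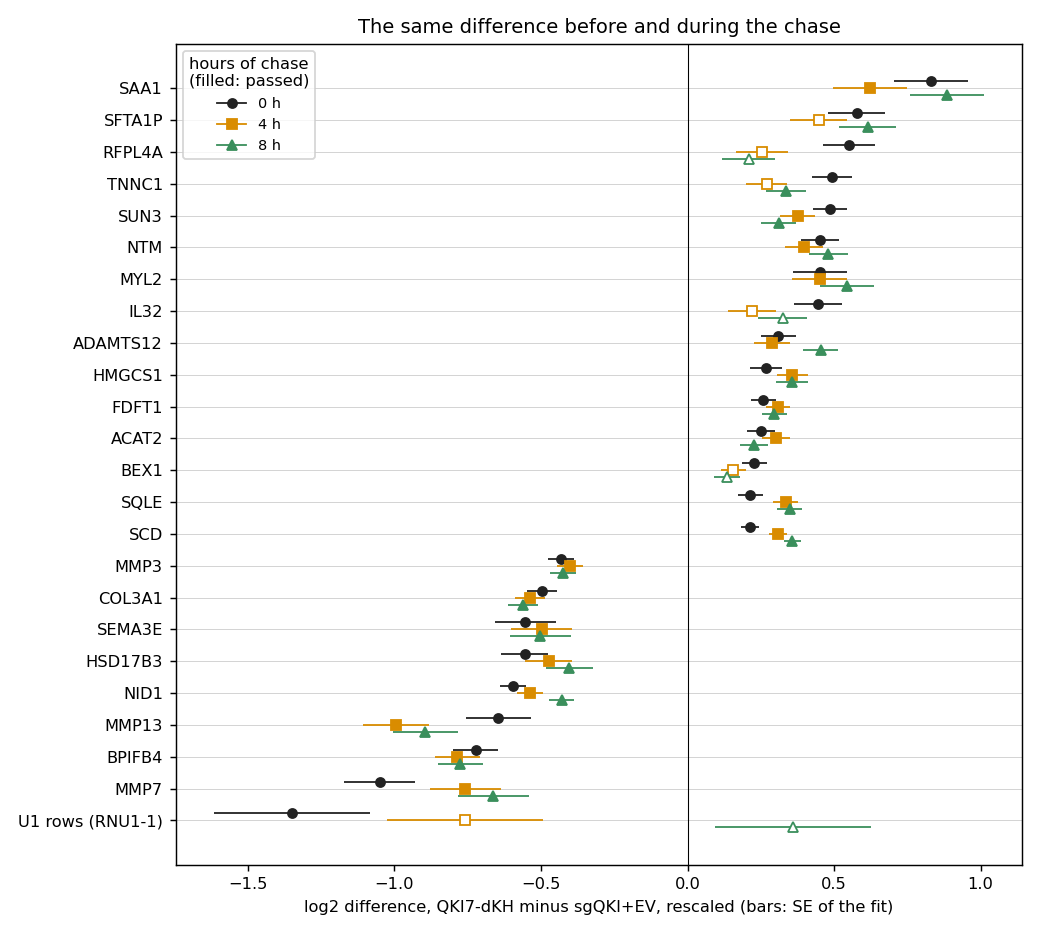
Rescaled log2 difference between QKI7-dKH and sgQKI+EV cells (horizontal axis, bars are the standard error of the fit) at 0 h, 4 h and 8 h of chase for the 24 distinct rows that passed on both scales at 0 h with a mean signal of at least 5 (vertical axis). Filled symbols passed and open ones did not: the symbols of each row lie on one side of 0 except those of the U1 rows, at -1.35, -0.76 and 0.36.

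The place of QKI7-dKH cells among all 4 genotypes at 0 h was read on the rescaled values. QKI7-dKH differed from QKI7-WT at 88 rows (0.701%), from sgNS+EV at 1025 rows (8.17%), and QKI7-WT differed from sgQKI+EV at 69 rows (0.55%, 14 higher and 55 lower). As deposited the counts were 471 (3.75%, 465 higher and 6 lower), 1434 (11.4%) and 11 (0.0877%, 8 higher and 3 lower) in the same order. These comparisons share libraries with the one above, so they are set side by side and are not independent of it. HMGCS1 averaged 95.6 ± 2.17 rescaled units in QKI7-dKH cells, 74.7 ± 6.7 in QKI7-WT cells, 79.2 ± 0.236 in sgQKI+EV cells and 66.5 ± 2.48 in sgNS+EV cells (SD, n = 2 each). The rescaled log2 difference of HMGCS1 was 0.35 against QKI7-WT (limma adjusted p = 0.0023) and 0.52 against sgNS+EV (adjusted p = 1.9e-05). QKI7-dKH thus had the highest level of the 4, and QKI7-WT and sgQKI+EV did not pass against each other (adjusted p = 0.78). SQLE, FDFT1 and ACAT2 were likewise higher in QKI7-dKH than in QKI7-WT, by 0.26, 0.22 and 0.29 (adjusted p between 0.00405 and 0.0189).

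Other genes named above also differed between QKI7-dKH and QKI7-WT after rescaling. MYL2 averaged 39.7 ± 0.0953 rescaled units in QKI7-dKH cells, 22 ± 1.59 in QKI7-WT cells, 28.8 ± 1.59 in sgQKI+EV cells and 27 ± 0.141 in sgNS+EV cells, and its difference between QKI7-dKH and QKI7-WT was 0.82 (adjusted p = 0.000177). ADAMTS12 differed by 0.54 between QKI7-dKH and QKI7-WT (adjusted p = 0.000177), TNNC1 by 0.36 (0.0167) and SUN3 by 0.36 (0.00614). Against QKI7-WT, COL3A1 was at -0.48 (adjusted p = 0.000119), BPIFB4 at -0.45 (0.00717), MMP7 at -0.57 (0.0351) and NID1 at -0.31 (0.00149). On the deposited scale BPIFB4 and NID1 did not pass against QKI7-WT (adjusted p = 0.0547 and 0.169), and MMP13 did not pass on either scale (adjusted p = 0.344 rescaled).

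Of the 39 distinct rows that passed after rescaling, 11 also passed in the same direction in QKI7-WT against sgQKI+EV. Among them were MMP3, SCD, HSD17B3, RFPL4A, NID1 and IL32. In QKI7-WT against sgQKI+EV, NID1 was at -0.28 rescaled (limma adjusted p = 0.0038) and -0.22 deposited (adjusted p = 0.727). IL32 was at 0.83 rescaled (adjusted p = 2.9e-05) and 0.90 deposited (adjusted p = 0.00021). On the deposited scale QKI7-WT against sgQKI+EV passed for RFPL4A (adjusted p = 0.00367) and not for MMP3, SCD or HSD17B3 (adjusted p = 0.138, 0.564 and 0.256). MMP3 averaged 52.1 ± 1.66 rescaled units in QKI7-dKH cells, 53.9 ± 0.0366 in QKI7-WT cells, 70.6 ± 0.888 in sgQKI+EV cells and 50.3 ± 1.48 in sgNS+EV cells. QKI7-WT against sgQKI+EV gave -0.38 (adjusted p = 0.00018), and QKI7-dKH against QKI7-WT -0.05 (SE 0.04, adjusted p = 0.978). SCD averaged 377.3 ± 6.96 in QKI7-dKH cells, 360.8 ± 2.09 in QKI7-WT cells, 325.1 ± 1.5 in sgQKI+EV cells and 358.4 ± 3.73 in sgNS+EV cells, with sgQKI+EV the lowest. In QKI7-dKH cells SCD did not pass against QKI7-WT (0.06, limma adjusted p = 0.688) or sgNS+EV (0.07, adjusted p = 0.156). HSD17B3 was at -0.43 and RFPL4A at 0.45 in QKI7-WT against sgQKI+EV (adjusted p = 0.0183 and 0.026), and neither passed between the add-backs (adjusted p = 0.873 and 0.965).

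IL32 was higher still with intact QKI7. It averaged 12.5 ± 0.361 rescaled units in QKI7-dKH cells, 16.6 ± 0.0933 in QKI7-WT cells, 8.93 ± 1.28 in sgQKI+EV cells and 12.2 ± 0.757 in sgNS+EV cells, and was lower in QKI7-dKH than in QKI7-WT by a log2 difference of -0.39 (adjusted p = 0.0347), which did not pass as deposited (-0.26, adjusted p = 0.141). HIST1H2BK, a histone H2B gene, was lower in QKI7-dKH than in sgQKI+EV (-0.19, adjusted p = 0.0101) and higher than in QKI7-WT (0.16, adjusted p = 0.0198).

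Against sgNS+EV, the cells without the QKI guide, the genes fell into several orders. COL3A1 averaged 16.8 ± 0.056 rescaled units in QKI7-dKH cells, 23.8 ± 0.956 in QKI7-WT cells, 24.1 ± 0.618 in sgQKI+EV cells and 44.4 ± 0.439 in sgNS+EV cells, so that QKI7-dKH lay farthest from sgNS+EV (-1.35, adjusted p = 5.18e-11). SAA1 averaged 21.6 ± 2.64 in QKI7-dKH cells, 15.8 ± 1.58 in QKI7-WT cells, 11.7 ± 0.285 in sgQKI+EV cells and 7.08 ± 0.927 in sgNS+EV cells, and was 1.48 higher in QKI7-dKH than in sgNS+EV on the log2 scale (adjusted p = 2.75e-06), while its difference from QKI7-WT did not pass after rescaling (0.42, adjusted p = 0.224) and passed as deposited (0.56, adjusted p = 0.0265). NID1 had another order, with 85.6 ± 2.42 in QKI7-dKH cells, 106.3 ± 0.674 in QKI7-WT cells, 129.8 ± 3.27 in sgQKI+EV cells and 77.3 ± 1.26 in sgNS+EV cells. For NID1 QKI7-dKH was the nearest of the guide-carrying groups to sgNS+EV, from which it did not pass after rescaling (0.15, adjusted p = 0.0507) and passed as deposited (0.24, adjusted p = 0.0457).

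**Figure D5:**
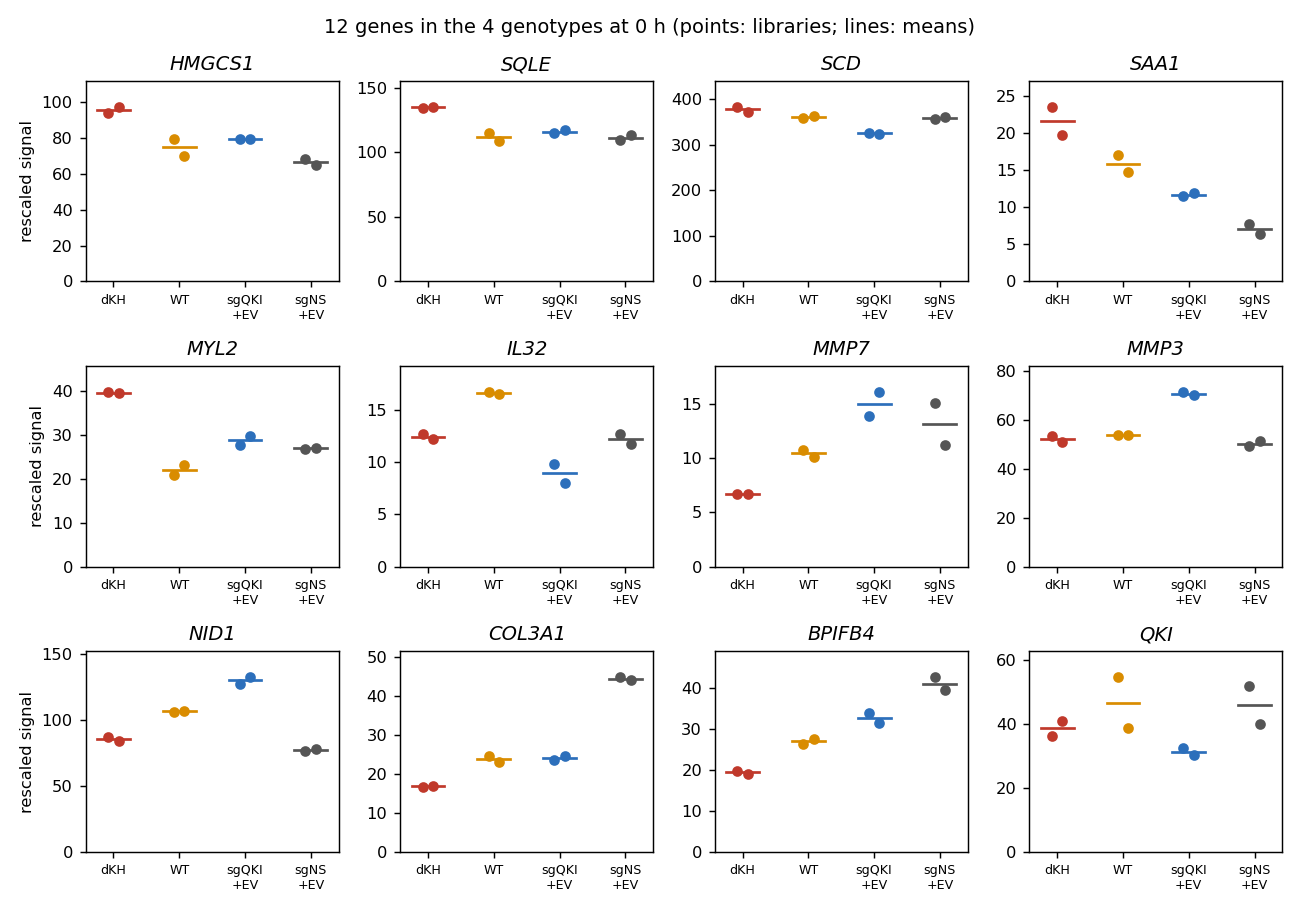
Rescaled signal (vertical axes, from 0) of 12 genes in the 4 genotypes at 0 h, with 1 point per library and a line at the mean. QKI7-dKH has the highest mean for HMGCS1, SQLE, SCD, SAA1 and MYL2, although SCD and SAA1 did not pass against QKI7-WT. QKI7-dKH is the lowest for MMP7, COL3A1 and BPIFB4, while IL32 is highest in QKI7-WT and NID1 and MMP3 are highest in sgQKI+EV.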

How the data were processed

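PolyA RNA of U2OS cells was sequenced on an Illumina NovaSeq instrument after the KAPA Stranded mRNA-Seq kit, per the labels' protocols. STAR, RSEM and the build GRCh38 are listed in the submitters' processing notes, which give no versions. Each deposited value is a linear signal per gene. The values themselves read as normalised to ERCC spike-in RNA, since its total is nearly equal in every library, but no source used here describes that step. Depth is unknown, so precision came from replicate libraries (Pearson r across genes, which are not independent replicates, 0.9967 in QKI7-dKH and 0.9971 in sgQKI+EV).

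Rows other than ERCC (12547 of 12585) were analysed as log2(value + 1), deposited and after scaling each library to the same total without 19 ribosomal RNA rows. limma 3.58.1 in R 4.3.3 fitted 12 group means to 24 libraries with a mean-variance trend (12 residual degrees of freedom, prior 9 deposited and 4.88 rescaled), with two-sided tests, Benjamini-Hochberg adjustment over 12547 rows and a threshold of 0.05. Requiring a value of 1 or more in 2 or more libraries dropped 0 rows. Log2 differences are of values plus 1 and understate changes of low genes. The fit was tested on simulated data.

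Named genes were QKI, up to 15 per direction that passed on both scales with a mean of at least 5 and groups that did not overlap, up to 4 per direction from each list, and 5 per direction at 4 h and 8 h. CYP51A1, INSIG1, PMVK, TM7SF2, FASN, MMP2, MMP14, TIMP1, LUM, CDKN1B, RN7SL2 and the rows lower after rescaling alone were named after their values were seen. The members and lists were chosen with earlier results of these data known. Gene positions and 3′UTRs are from GENCODE 29, with 1 transcript per gene (the principal one by APPRIS, then the longest coding part), and promoters from RefSeq. Alternatives were the pseudocount, filter, libraries fitted, scaling, replicate block and each library left out.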

Additional observations from a re-analysis of the deposited data

How the results depend on the processing

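Counts of rows that passed at 0 h were 1590 on the deposited scale and 43 after rescaling. On the deposited scale, the fit on the 4 compared libraries alone gave 3736, quantile normalization 87 (41 higher, 46 lower), and leaving out 1 library between 20 and 1026. After rescaling, the fit on the 4 compared libraries gave 170, the fit on the 8 libraries at 0 h gave 13, quantile normalization gave 87, and leaving out 1 library between 10 and 23. A pseudocount of 0.1 (1465 and 41), rows with a mean of at least 10 (2168 and 48), the fit on the 8 libraries at 0 h on the deposited scale (1827), totals with ribosomal RNA (47), median ratios (31) and identical rows counted once, chosen after seeing the data (1618 and 37), stayed within 1.5 times. At 4 h, 56 rows passed after rescaling, 278 on the deposited scale and 9 to 16 with 1 library left out. At 8 h, 147 passed after rescaling, 5561 on the deposited scale and 23 to 33 with 1 library left out. The change of the difference from 0 h to 8 h gave 0 rows under every alternative run. Among the single genes compared over all alternatives, SRSF3, a splicing factor gene that passed on the deposited scale, was the one called gene to change sign, at -0.0127 (adjusted p = 0.993) under quantile normalization. Of single rows called after rescaling, 32 lost the call in the fit on the 8 libraries at 0 h, 13 with median ratios and 9 with totals that included ribosomal RNA, and 0 turned direction. The cause of these differences was not tested, beyond that quantile normalization removes the shared shift and that fewer libraries leave fewer degrees of freedom.

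With the replicate number as a block, 1871 rows passed on the deposited scale and 40 after rescaling at 0 h, 49 at 4 h, 151 at 8 h and 0 for the change. The numbers were not taken to pair the libraries: only 2 pairs exist, whose differences between replicate 1 and 2 correlated at 0.165 across genes on the deposited scale and 0.183 after rescaling. Under the block MYL2, ACKR3, CAPN5, EPAS1 and IGFBP5 did not pass (adjusted p between 0.0511 and 0.0586). Without counts, depth could not be used to limit low values.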
